A study of Mus musculus with 15 samples.

Results

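The genes described here encode 43 enzymes with which the kidney breaks down or remodels amino acids, out of 56748 genes in the deposited table. They were chosen by name and by what their products do, with earlier results of these data known. All 43 were found in the table. By the reaction of their products they fall into tyrosine and other aromatic amino acids (4 genes), arginine and creatine (4), tryptophan and kynurenine (6), histidine (2), glycine and its methylated forms (8), proline and hydroxyproline (4), branched-chain amino acids (9), sulfur amino acids (4) and glutamate and aspartate (2). The study asked how a leptin-neutralizing antibody, LepAb, changes fibrotic organs. All mice were wild-type male C57Bl/6. In the kidney model, mice of 10 to 12 weeks received vehicle (WTK) or folic acid at 200 mg/kg, which precipitates in the tubules and injures them, and the injured mice then received control IgG (IgGK) or LepAb (LepK) at 10 mg/kg every other day for 21 days, with kidneys taken at day 28. Vehicle mice are described as given LepAb or control IgG as well, and which of these the WTK mice had is not stated. In the lung model, mice of 12 weeks received bleomycin at 1.5 units/kg with IgG (IgGL) or LepAb (LepL) at 10 mg/kg for 14 days, with lungs taken at day 14. No vehicle lung was analysed here. Each group had 3 libraries of poly(A) RNA, and the lung groups are described as 3 mice each. The sources do not say that each library held 1 mouse, so p-values measure the spread between libraries.

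The proximal tubule, the segment just behind the glomerular filter, takes up most filtered amino acids and holds many enzymes that oxidize them or turn them into products for other organs. The kidney makes much of the body's circulating arginine from citrulline and starts creatine synthesis. It also breaks down proline, hydroxyproline, tyrosine, glycine and the methylated glycines that come from choline. Most of these enzymes are shared with the liver, and in lung several of them are scarce.

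Total counts ran from 25913969 to 32321976 in the 9 kidney libraries and from 29974718 to 38924788 in the 6 lung libraries, where 1 count equals 0.0257 to 0.0386 CPM, the unit of counts scaled to a common library size. The markers matched the labelled organs. The summed level of 12 proximal tubule markers was 13590 to 57020 CPM in kidney and 32.1 to 163 CPM in lung, and 8 lung epithelium markers summed to 7.22 to 22.7 CPM in kidney and to 16880 to 48210 CPM in lung. Markers of neighbouring organs set 3 kidney libraries apart. The 6 adrenal cortex markers summed to 631 CPM in IgGK 1 and 811.7 CPM in IgGK 2 but to 16.6 CPM in IgGK 3 and to 5.43 to 7.64 CPM in the WTK and LepK libraries. The liver marker Alb stood at 6.78, 696 and 26.7 CPM in the LepK libraries and at 2.31, 73.9 and 27.8 CPM in the IgGK libraries, and Ahsg, which was listed at 0 in WTK, reached 46.7 CPM in LepK 2. LepK 2 held the highest level among the 9 kidney libraries for 7 of the 9 hepatocyte markers. The sum of these markers, most of it Cyp2e1, did not set LepK 2 apart in this way, with 3398 to 3723 CPM in WTK, 1129 to 1480 CPM in IgGK and 1962 to 2683 CPM in LepK. Many of the 43 enzymes are also made in liver. The numbers of members called in each kidney comparison are given with and without these libraries, and those of the other lists with all libraries.

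The reference table of RefSeq promoters (GRCm38.p6) holds windows of 300 bases, from 250 before to 50 after a start site, for 38 of the 43 genes, and none for Arg2, Asl, Cth, Dbt and Kynu. They are described because 2 of the genes, Bhmt2 and Dmgdh, share 1 promoter region. A link between these sequences and the changes in level was not tested. Both windows lie on chromosome 13 and face away from each other, with 133 bases between the start sites at chr13:93674303-93674435, here on the + strand, so that the start of Bhmt2 lies to the left and that of Dmgdh to the right.

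Bhmt2 and Dmgdh: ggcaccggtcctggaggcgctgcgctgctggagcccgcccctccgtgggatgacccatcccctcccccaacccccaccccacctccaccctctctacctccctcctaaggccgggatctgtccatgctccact

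Of these bases 69.9% are G or C. Letters known for hepatocyte nuclear factors, which are transcription factors of liver and proximal tubule, were searched on both strands. The HNF1 letters GTTAATNAT were found in windows of 2 of the 38 genes (5.26%), Hoga1 and Prodh2, and in those of 0.94% of the 27025 genes with a window. The HNF4 letters CAAAGTCCA were found in windows of 2 of the 38 (5.26%), Agxt2 and Pipox, and of 0.555% of all genes with a window. The match in Pipox lies just after the start site. The other 3 are shown with up to 25 bases on each side and the match in capitals. They are read along the gene, and those of Hoga1 and Prodh2 match on the opposite strand. The stretches are chr19:42045809-42045867 for Hoga1, chr7:30493506-30493564 for Prodh2 and chr15:10358487-10358532 for Agxt2, each on the + strand.

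Hoga1: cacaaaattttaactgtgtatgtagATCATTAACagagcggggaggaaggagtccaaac

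Prodh2: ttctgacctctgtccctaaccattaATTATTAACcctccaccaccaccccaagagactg

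Agxt2: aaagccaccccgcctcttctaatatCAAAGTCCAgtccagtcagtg

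The windows of the other members did not hold these letters, which says nothing about whether the factors act on them.

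In vehicle kidney the 43 genes spanned a wide range of levels. Levels between genes and between organs are given as FPKM, read counts scaled by gene length and library, as deposited. The mean FPKM over the 3 WTK libraries ran from 0.415 for Bhmt to 1013 for Ass1, with a median of 38.9, and 36 of 43 genes reached at least 10 FPKM. Ass1, argininosuccinate synthase, stood at 972, 1039 and 1028 FPKM in WTK, at 182, 169 and 205 FPKM in IgGK and at 566, 437 and 415 FPKM in LepK, and was the most abundant of the 43 in each kidney group. Fah, the last enzyme of tyrosine breakdown, followed in WTK with 229.8 ± 3.62 FPKM (SD, n = 3), and Pipox, the peroxisomal sarcosine oxidase, with 196 ± 2.51 FPKM. Hgd with 181 ± 2.55 FPKM and Gatm with 173 ± 25.6 FPKM were next and did not differ from each other beyond their spread. The number of genes at or above 100 FPKM was 9 in WTK, 1 in IgGK and 5 in LepK. The library constant behind these FPKM values differed between the groups. It was 1.019 to 1.035 times the total count in WTK, 1.403 to 1.458 in IgGK and 1.178 to 1.278 in LepK. Its part in these numbers was not tested. In lung the median over the 43 was 1.42 FPKM in IgGL and 1.62 FPKM in LepL, and 4 genes reached 10 FPKM in each. The mean FPKM was higher in IgGK than in IgGL for all 43 genes, of which Prodh2 and Bhmt2 were listed at 0 in IgGL. Glul, glutamine synthetase, came closest, with 88.8, 102 and 84.8 FPKM in IgGK and 61.95, 71.6 and 64.5 FPKM in IgGL. Organ, injury and day differ at once between these groups and cannot be told apart.

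**Figure D1:**
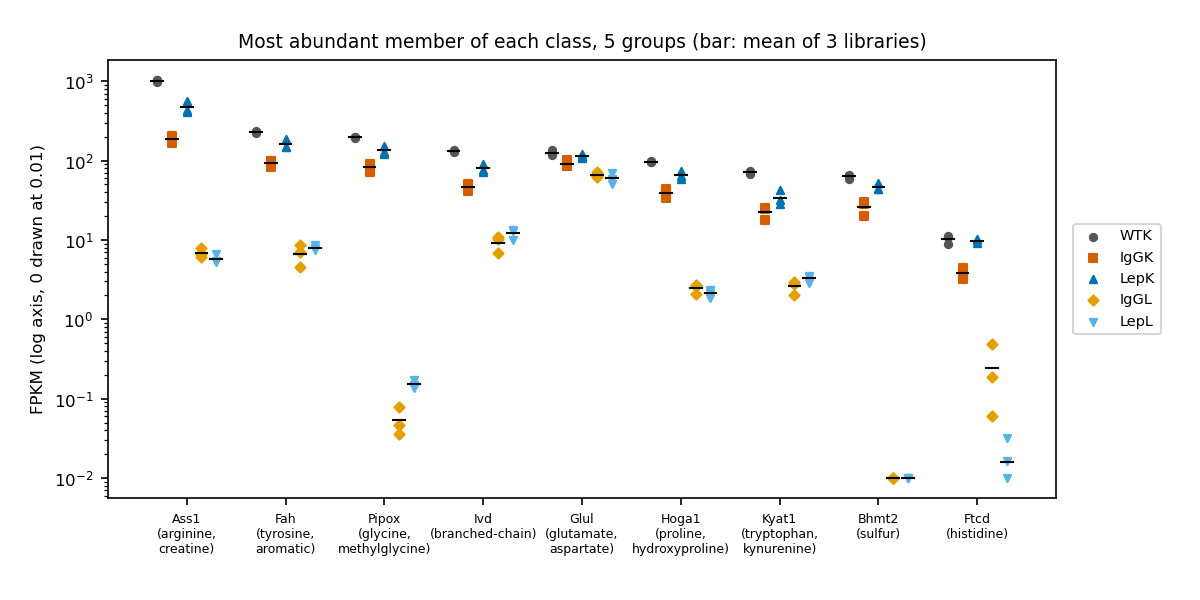
FPKM per library on a log axis for the most abundant gene of each of the 9 classes in the 5 groups, with the mean of 3 libraries as a bar and values of 0 drawn at 0.01. The other genes stood lower in IgGK than in WTK on this scale and with library-size scaling, which turned the sign for Glul, and Glul was the one among them with a lung mean near its kidney mean, at 66 ± 4.999 FPKM in IgGL against 91.8 ± 8.76 FPKM in IgGK.

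Folic acid injury was accompanied by a broad fall of these genes. A gene was called when its absolute log2 fold change passed 0.5 and its adjusted p fell under 0.05 over all genes tested. In IgGK against WTK, 37 of 43 members were called lower and 1, Arg2, higher, where 15.6% of the 19593 genes tested were called lower and 21.7% higher. The median log2 fold change of the members was -1.27, against 0.04 for all genes tested. In 39 members every IgGK library lay below every WTK library, and in 1 every IgGK library lay above, while the libraries of the groups do not overlap in 62.6% of all genes tested. With library-size scaling in place of TMM, the members had a median of -0.83 and all genes one of 0.48. The members together took 1.15 to 1.18% of all counts in WTK and 0.534 to 0.587% in IgGK. In whole kidney, fewer proximal tubule cells and less of these mRNAs per cell cannot be told apart. The count of calls was 37 lower and 1 higher without any 1 library, and 39 lower and 1 higher with IgGK 3 as the only IgGK library and without LepK 2.

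In LepK against IgGK the difference ran the other way. Of the 43 members 32 were called higher and none lower by edgeR, where 4.38% of all genes tested were called higher and 5.99% lower. The median log2 fold change of the members was 0.67, against -0.01 for all genes. At an unadjusted p under 0.05, 40 members passed, where the share of all genes was not counted, and DESeq2 called none lower. The LepK libraries all lay above the IgGK libraries for 37 members, and below them for 1, Arg2, against 37.4% of all genes whose libraries do not overlap in either direction. Another 5 members, Sardh, Gcsh, Amt, Glul and Got1, had an adjusted p under 0.05 with a log2 fold change of less than 0.5. The share of counts taken by the members was 0.809 to 0.896% in LepK. Without LepK 2, which held the liver markers, 34 members were called higher, and with IgGK 3 as the only IgGK library and without LepK 2 it was 33. The count was lowest, at 27, without LepK 1, in which 32 of the 43 members had their highest level of the group. The share of all genes highest in LepK 1 was not counted.

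LepK kidneys still differed from vehicle kidneys. In LepK against WTK 29 members were called lower and 3 higher, where 7.3% of all genes were called lower and 15.2% higher, with a member median of -0.55 against 0.03 for all genes. In 37 members every LepK library lay below every WTK library and in 2 above, against 50.2% of all genes without overlap. The mean of LepK lay between those of IgGK and WTK for 40 of 43 members and above both for 3. As a share of the WTK mean CPM, the members ranged from 17.5 to 278% in IgGK, with a median of 41.4%, and from 42 to 199% in LepK, with a median of 68.1%. The 3 kidney comparisons share groups, so these counts are not independent of each other. With IgGK 3 as the only IgGK library and without LepK 2, 21 members were called lower and 3 higher.

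Seen by gene, 25 members were lower in IgGK than in WTK, higher in LepK than in IgGK and still lower in LepK than in WTK. Another 6, Kyat3, Ftcd, Agxt2, Bckdhb, Bhmt2 and Cth, followed the first 2 steps and were not called in LepK against WTK. Afmid, Sardh, Gldc and Gcsh were lower than WTK in both injured groups without a call between the 2, and Amt and Got1 were called only in IgGK against WTK. Uroc1, Arg2 and Kynu went other ways, and Ddc, Bhmt and Glul were called in none of the 3 comparisons. Some calls behind this sorting were marginal. In LepK against WTK, those of Fah, Dbt and Gcsh were kept in 2 of the 9 fits without 1 library, and that of Prodh2 in 5. In LepK against IgGK, those of Kyat1, Mccc1, Pcca and Pccb were kept in 7 of 9.

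**Figure D2:**
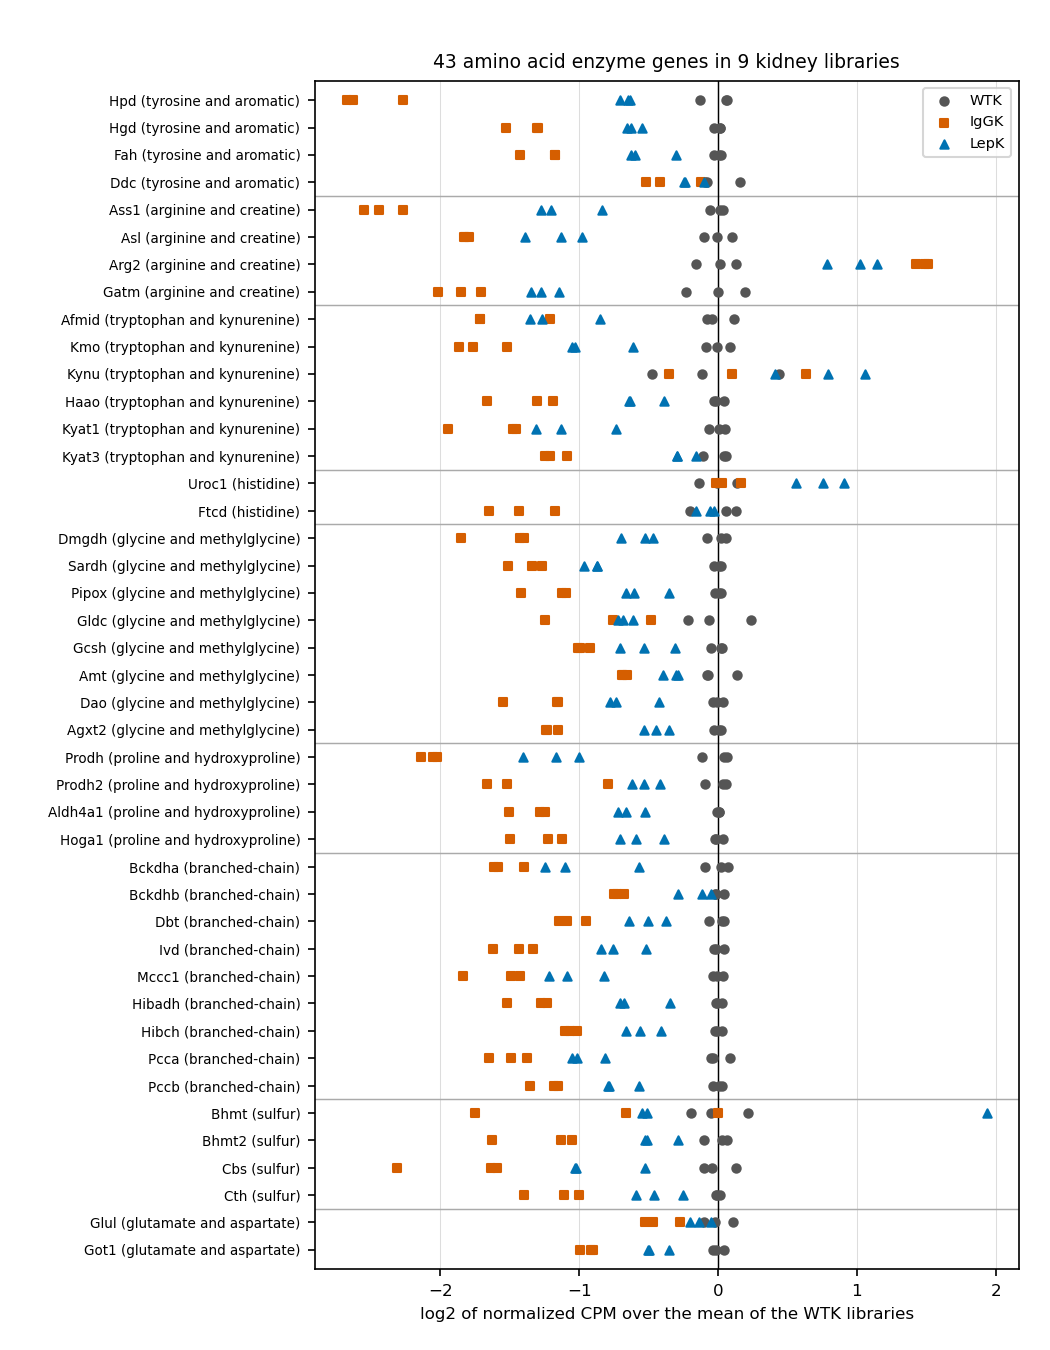
Each of the 43 members (rows, by class) in each of the 9 kidney libraries, as log2 of normalized CPM over the WTK mean. All IgGK squares lie left of all WTK circles in 39 of 43 rows, LepK triangles lie between them in 40 of 43 rows by group mean, and Arg2, Uroc1, Kynu and Bhmt break the pattern.

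Tyrosine breakdown lost most in its first step measured here. Levels between libraries are given as CPM scaled by edgeR's TMM factors, within each organ. Hpd (ENSMUSG00000029445, chr5:123309870-123320790, minus strand, as the table places it, with GRCm39 named in the submitters' processing notes), the dioxygenase that turns 4-hydroxyphenylpyruvate into homogentisate, stood at 84.4, 96.3 and 96.4 CPM in WTK, 14.5, 14.9 and 19.1 CPM in IgGK and 56.6, 59.5 and 58.95 CPM in LepK. The 3 groups did not overlap, and LepK lay nearer to WTK than to IgGK. The log2 fold change was -2.51 ± 0.10 (SE, adjusted p = 1.13e-08) in IgGK against WTK, the largest fall among the 43 genes, and 1.85 ± 0.10 (SE, adjusted p = 5.86e-06) in LepK against IgGK, the largest rise. Hpd remained lower in LepK than in WTK, at -0.66 ± 0.10 (SE, adjusted p = 0.000202). It overlaps Psmd9 on the other strand, whose kidney counts came to 66.1% of those of Hpd, and the libraries did not keep the strand. Hgd, homogentisate dioxygenase, had 577, 577 and 561 CPM in WTK, 233, 199 and 232 CPM in IgGK and 391, 364 and 371 CPM in LepK. Fah, which splits fumarylacetoacetate, had 620.3, 624 and 604 CPM in WTK, 274, 229 and 273 CPM in IgGK and 499, 399.6 and 406 CPM in LepK. Both showed 3 separate groups, with changes of -1.37 and -1.25 in IgGK against WTK and of 0.76 and 0.75 in LepK against IgGK. Ddc, the aromatic amino acid decarboxylase with which the proximal tubule makes dopamine, differed by -0.34 ± 0.10 (SE, adjusted p = 0.0148) and by 0.15 ± 0.10 (SE, adjusted p = 0.356) in these comparisons and was called in neither, and both signs turned with library-size scaling.

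The pair of enzymes that makes arginine fell together. Ass1 (ENSMUSG00000076441, chr2:31360219-31410684, plus strand) joins citrulline and aspartate, and its levels were 2844, 3030 and 2991 CPM in WTK, 544, 505 and 615 CPM in IgGK and 1660, 1286 and 1224 CPM in LepK. All 3 groups were apart, and every LepK library held more than any IgGK library and less than any WTK library. Its log2 fold change was -2.41 ± 0.12 (SE, adjusted p = 2.51e-08) in IgGK against WTK and 1.32 ± 0.11 (SE, adjusted p = 6.42e-05) in LepK against IgGK. Asl, which splits argininosuccinate to release arginine, stood at 320.0, 369.6 and 342 CPM in WTK, 99.2, 96.96 and 97.1 CPM in IgGK and 174, 132 and 157 CPM in LepK. Gatm, which passes the amidino group of arginine to glycine and so begins creatine synthesis, stood at 534, 718 and 627 CPM in WTK, 192, 173 and 155 CPM in IgGK and 283, 259 and 246 CPM in LepK. For both genes LepK stayed closer to IgGK than to WTK, with changes of -1.81 ± 0.10 (SE, adjusted p = 4.09e-08) and -1.85 ± 0.11 (SE, adjusted p = 8.92e-08) in IgGK against WTK and of 0.66 ± 0.09 (SE, adjusted p = 0.000735) and 0.60 ± 0.11 (SE, adjusted p = 0.00263) in LepK against IgGK. Gatm had the lowest LepK level of all members relative to WTK, -1.25 ± 0.11 (SE, adjusted p = 7.38e-06). Arg2 (ENSMUSG00000021125, chr12:79177551-79203075, plus strand), the mitochondrial arginase that degrades arginine, was the single member called higher in IgGK. Its levels were low, 2.62, 3.20 and 2.96 CPM in WTK, 7.84, 8.22 and 8.35 CPM in IgGK and 5.03, 5.93 and 6.46 CPM in LepK, and rose in all IgGK libraries. The change was 1.48 ± 0.17 (SE, adjusted p = 1.19e-05) in IgGK against WTK, -0.49 ± 0.16 (SE, adjusted p = 0.0535) in LepK against IgGK, which missed the threshold, and 0.99 ± 0.17 (SE, adjusted p = 0.00073) in LepK against WTK. Arg2 overlaps Vti1b on the other strand, whose counts in kidney were 1363% of its own, and the part of such reads in its change was not tested.

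Of the kynurenine genes, which take tryptophan products towards NAD or towards kynurenic acid, 5 of 6 fell in IgGK and 4 of 6 rose in LepK. Kmo, kynurenine 3-monooxygenase, had 177, 156 and 165 CPM in WTK, 58.01, 45.6 and 48.9 CPM in IgGK and 108, 81.3 and 80.3 CPM in LepK. Haao, which opens the ring of 3-hydroxyanthranilate, had 305, 289 and 292 CPM in WTK, 129.6, 93.2 and 119.8 CPM in IgGK and 225, 190.3 and 189 CPM in LepK. Both genes had 3 groups without overlap, at -1.71 ± 0.12 (SE, adjusted p = 2.43e-07) and -1.37 ± 0.11 (SE, adjusted p = 6.64e-07) in IgGK against WTK and 0.83 ± 0.12 (SE, adjusted p = 0.000778) and 0.82 ± 0.11 (SE, adjusted p = 0.000522) in LepK against IgGK. Kyat1 and Kyat3 are aminotransferases that make kynurenic acid. Kyat1 had 239.9, 259 and 252 CPM in WTK, 89.97, 65.1 and 91.4 CPM in IgGK and 150.2, 101 and 114 CPM in LepK, while Kyat3 had 46, 45.5 and 41.02 CPM in WTK, 20.8, 18.6 and 19.1 CPM in IgGK and 39.6, 35.9 and 35.9 CPM in LepK. In LepK against WTK, Kyat3 stood at -0.25 ± 0.08 (SE, adjusted p = 0.024) and Kyat1 at -1.04 ± 0.14 (SE, adjusted p = 0.000155). Kyat1 changed by -1.61 in IgGK against WTK and by 0.57 in LepK against IgGK, and Kyat3 by -1.18 and 0.93, and the difference between the genes was not tested. Afmid, kynurenine formamidase, stood at 31 ± 2.21 CPM (SD, n = 3) in WTK, 10.8 ± 2.28 CPM in IgGK and 14.1 ± 2.75 CPM in LepK, where the last 2 groups overlapped. Kynu, kynureninase, which acts between Kmo and Haao, did not follow them. Its levels were 4.19, 5.41 and 7.93 CPM in WTK, 4.58, 9.08 and 6.27 CPM in IgGK and 7.76, 10.1 and 12.2 CPM in LepK, the groups overlapped throughout, and it was called higher in LepK against WTK alone, at 0.77 ± 0.28 (SE, adjusted p = 0.0443), a call that 4 of the 9 fits without 1 library kept. Kmo overlaps Fh1 and Afmid overlaps Tk1, with counts of 179% and 106% of their own.

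The histidine pathway split. Uroc1 (ENSMUSG00000034456, chr6:90310266-90341533, plus strand), urocanase, stood at 38.6, 46.6 and 42.2 CPM in WTK, 42.1, 47.6 and 43.3 CPM in IgGK and 71.6, 79.5 and 62.5 CPM in LepK. WTK and IgGK overlapped, and each LepK library lay above all of them. The change was 0.06 ± 0.10 (SE, adjusted p = 0.604) in IgGK against WTK, 0.68 ± 0.10 (SE, adjusted p = 0.000685) in LepK against IgGK and 0.75 ± 0.10 (SE, adjusted p = 9.65e-05) in LepK against WTK. Uroc1 is also a liver enzyme, and its LepK value was highest in LepK 2. Alb stood at 6.78 and 26.7 CPM in LepK 1 and LepK 3 and was counted in IgGK libraries too. The part of liver tissue in the levels of Uroc1 was not tested. Ftcd, which takes the formimino group of histidine onto folate, stood at 41.6, 34.8 and 43.8 CPM in WTK, 12.8, 14.8 and 17.7 CPM in IgGK and 39.3, 35.9 and 38.4 CPM in LepK. The LepK libraries lay among the WTK libraries. Its change was -1.40 ± 0.12 (SE, adjusted p = 9.36e-07) in IgGK against WTK, 1.32 ± 0.12 (SE, adjusted p = 6.88e-05) in LepK against IgGK, about as large as that of Ass1, and -0.08 ± 0.11 (SE, adjusted p = 0.626) in LepK against WTK.

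All 8 genes of glycine and its methylated forms were called lower in IgGK, and 4 of the 8 higher in LepK. Pipox (ENSMUSG00000017453, chr11:77771441-77784922, minus strand), which oxidizes sarcosine and pipecolic acid in peroxisomes, stood at 594, 589 and 576 CPM in WTK, 275, 219 and 269 CPM in IgGK and 460.1, 370.0 and 385 CPM in LepK. Dmgdh, the mitochondrial dimethylglycine dehydrogenase, stood at 152, 163 and 167 CPM in WTK, 60.9, 44.6 and 59.9 CPM in IgGK and 116, 112 and 99.2 CPM in LepK. Sardh, the mitochondrial sarcosine dehydrogenase that acts next, stood at 537, 518 and 530.2 CPM in WTK, 219.6, 186 and 209 CPM in IgGK and 271, 289 and 289 CPM in LepK. The 3 groups were apart in each gene, with LepK nearest to IgGK for Sardh. The log2 fold changes of Pipox, Dmgdh and Sardh were -1.20, -1.54 and -1.37 in IgGK against WTK. In LepK against IgGK they were 0.67 ± 0.10 (SE, adjusted p = 0.000886), 0.98 ± 0.11 (SE, adjusted p = 0.000183) and 0.47 ± 0.07 (SE, adjusted p = 0.00107), the last under the fold threshold. Dao, the D-amino acid oxidase that also acts on glycine, had 525, 509 and 499 CPM in WTK, 229, 175 and 229 CPM in IgGK and 380.2, 298 and 308 CPM in LepK. Agxt2, a mitochondrial aminotransferase that moves amino groups onto glyoxylate to give glycine, had 134, 138 and 137 CPM in WTK, 61.4, 58.03 and 57.7 CPM in IgGK and 107, 100.4 and 94.2 CPM in LepK. Again no group overlapped another, at -1.27 and -1.21 in IgGK against WTK and at 0.64 ± 0.11 (SE, adjusted p = 0.00227) and 0.77 ± 0.06 (SE, adjusted p = 6.42e-05) in LepK against IgGK.

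The glycine cleavage system showed the smallest differences of this class in IgGK against WTK. Gldc, the glycine decarboxylase, stood at 61.03, 75.3 and 54.97 CPM in WTK, 37.8, 45.7 and 26.9 CPM in IgGK and 38.6, 39.8 and 41.7 CPM in LepK, Gcsh, the lipoyl carrier, at 114 ± 3.48 CPM in WTK, 58.1 ± 1.85 CPM in IgGK and 80.3 ± 11.1 CPM in LepK, and Amt, the aminomethyltransferase, at 75.8 ± 6.58, 47.4 ± 0.546 and 60.3 ± 2.38 CPM. All 3 fell in IgGK, with changes of -0.79 ± 0.16 (SE, adjusted p = 0.00101), -0.97 ± 0.09 (SE, adjusted p = 1.47e-06) and -0.68 ± 0.07 (SE, adjusted p = 5.18e-06). In LepK against IgGK, Gldc libraries overlapped at 0.12 ± 0.16 (SE, adjusted p = 0.648), which turned to -0.05 without IgGK 3. Those of Gcsh and Amt lay above IgGK, at 0.47 ± 0.09 (SE, adjusted p = 0.00304) and 0.35 ± 0.07 (SE, adjusted p = 0.00491), both under the fold threshold.

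The 4 genes of proline and hydroxyproline breakdown were called alike in the 3 kidney comparisons: lower in IgGK than WTK, higher in LepK than IgGK and lower in LepK than WTK. Prodh (ENSMUSG00000003526, chr16:17878221-17908067, minus strand), proline dehydrogenase, had 368, 418 and 410.2 CPM in WTK, 90.3, 95.9 and 97.8 CPM in IgGK and 199.6, 150.4 and 178 CPM in LepK. Prodh2, which oxidizes hydroxyproline, a residue released mostly from collagen, had 63.9, 57.6 and 63.1 CPM in WTK, 21.5, 35.5 and 19.4 CPM in IgGK and 39.97, 45.98 and 42.5 CPM in LepK. Prodh fell further than the other 3, -2.07 ± 0.10 (SE, adjusted p = 2.29e-08) in IgGK against WTK against -1.27 ± 0.17 (SE, adjusted p = 4.60e-05) for Prodh2, and the difference between the genes was not tested. In Prodh2 the IgGK 2 library stood above the other IgGK libraries. Aldh4a1, which carries both routes on by oxidizing pyrroline-5-carboxylate, had 485, 480.4 and 484 CPM in WTK, 198, 170.5 and 204 CPM in IgGK and 335, 293 and 305 CPM in LepK. Hoga1, the aldolase that ends hydroxyproline breakdown with glyoxylate and pyruvate, had 272, 261 and 263 CPM in WTK, 122, 93.99 and 113 CPM in IgGK and 203, 163 and 176 CPM in LepK. In LepK against IgGK the changes were close together, 0.89 ± 0.10 (SE, adjusted p = 0.000163) for Prodh, 0.75 ± 0.17 (SE, adjusted p = 0.00953) for Prodh2, 0.70 ± 0.08 (SE, adjusted p = 0.000214) for Aldh4a1 and 0.72 ± 0.10 (SE, adjusted p = 0.000642) for Hoga1. Prodh overlaps Dgcr6, with counts of 37.2% of its own.

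All 9 genes of branched-chain amino acid breakdown were called lower in IgGK and higher in LepK against IgGK, and 8 were still lower in LepK than in WTK. In LepK against IgGK, Bckdha, Dbt, Mccc1, Hibch, Pcca and Pccb lost their calls without LepK 1. With library-size scaling these genes and Bckdhb lost them. The call of Dbt in LepK against WTK was kept in 2 of the 9 fits without 1 library. Bckdha, Bckdhb and Dbt encode parts of the dehydrogenase complex that commits leucine, isoleucine and valine to breakdown. Bckdha had 88.7, 85.7 and 79.3 CPM in WTK, 27.6, 28.3 and 32.05 CPM in IgGK and 56.9, 35.6 and 39.3 CPM in LepK, Bckdhb had 71.6, 71.2 and 74.5 CPM in WTK, 43.1, 43.6 and 45.4 CPM in IgGK and 67.01, 70.1 and 59.2 CPM in LepK, and Dbt had 145, 144 and 135 CPM in WTK, 73.2, 64.1 and 66.5 CPM in IgGK and 109, 99.9 and 90.6 CPM in LepK. All 3 subunits fell, Bckdha with the largest and Bckdhb with the smallest change. In IgGK against WTK, Bckdha stood at -1.53 ± 0.14 (SE, adjusted p = 1.92e-06) and Bckdhb at -0.72 ± 0.07 (SE, adjusted p = 3.21e-06), and in LepK against WTK at -0.94 ± 0.14 (SE, adjusted p = 0.000236) and -0.15 ± 0.07 (SE, adjusted p = 0.122). Dbt lay between them at -1.06 ± 0.08 (SE, adjusted p = 3.89e-07) in IgGK against WTK. Between LepK and IgGK the 3 stood at 0.58, 0.57 and 0.56. Bckdha overlaps B3gnt8, whose kidney counts were 14.5% of its own.

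On the leucine branch, Ivd (ENSMUSG00000027332, chr2:118692435-118713390, plus strand), isovaleryl-CoA dehydrogenase, had 902, 861 and 868 CPM in WTK, 347, 286 and 324 CPM in IgGK and 611, 518 and 489.9 CPM in LepK. Mccc1, a subunit of methylcrotonyl-CoA carboxylase, had 218, 212 and 208 CPM in WTK, 79.3, 59.7 and 75.6 CPM in IgGK and 121, 91.6 and 100.2 CPM in LepK. Ivd returned further, at 0.76 ± 0.09 (SE, adjusted p = 0.000359) in LepK against IgGK, than Mccc1 at 0.54 ± 0.11 (SE, adjusted p = 0.00541), with -1.46 and -1.57 in IgGK against WTK, and the difference between them was not tested. On the valine branch, Hibch, which frees hydroxyisobutyrate from CoA, had 72.98, 73.8 and 75.5 CPM in WTK, 36.7, 35.3 and 34.5 CPM in IgGK and 55.8, 46.9 and 50.3 CPM in LepK. Hibadh, which oxidizes it, had 691, 708 and 688 CPM in WTK, 297, 242 and 288 CPM in IgGK and 547, 427 and 434 CPM in LepK. Neither gene had overlapping groups, with -1.06 and -1.34 in IgGK against WTK and 0.52 ± 0.07 (SE, adjusted p = 0.000594) and 0.77 ± 0.10 (SE, adjusted p = 0.000511) in LepK against IgGK. Pcca and Pccb, the subunits of propionyl-CoA carboxylase, where isoleucine and valine meet, had 205, 188 and 187 CPM in WTK, 74.5, 61.7 and 68.6 CPM in IgGK and 109.9, 95.6 and 93 CPM in LepK for Pcca and 446, 439.7 and 426 CPM in WTK, 197, 171 and 193 CPM in IgGK and 294, 254 and 253 CPM in LepK for Pccb. They stood at -1.50 and -1.22 in IgGK against WTK and at 0.54 ± 0.09 (SE, adjusted p = 0.00122) and 0.51 ± 0.08 (SE, adjusted p = 0.00107) in LepK against IgGK, close to the fold threshold. Pcca overlaps Ggact, with counts of 38.1% of its own.

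Of the sulfur amino acid genes, Bhmt2, Cbs and Cth fell in IgGK and rose in LepK. Bhmt2 (ENSMUSG00000042118, chr13:93792228-93810810, minus strand), which remethylates homocysteine from S-methylmethionine and shares the promoter region above with Dmgdh, had 175, 197 and 192 CPM in WTK, 91.1, 61.1 and 86.2 CPM in IgGK and 155, 132 and 131 CPM in LepK. Cbs, which condenses homocysteine with serine, had 352, 313 and 301 CPM in WTK, 107, 64.9 and 104 CPM in IgGK and 224, 158 and 158 CPM in LepK. Cth, which cleaves cystathionine to cysteine, had 204, 207 and 202 CPM in WTK, 102, 77.5 and 94.8 CPM in IgGK and 172, 135 and 148 CPM in LepK. LepK lay between the other groups in each, and nearest to WTK for Bhmt2 and Cth. The changes were -1.25 ± 0.13 (SE, adjusted p = 4.15e-06), -1.81 ± 0.18 (SE, adjusted p = 3.28e-06) and -1.16 ± 0.10 (SE, adjusted p = 1.55e-06) in IgGK against WTK and 0.81 ± 0.13 (SE, adjusted p = 0.00112), 0.97 ± 0.18 (SE, adjusted p = 0.00261) and 0.73 ± 0.10 (SE, adjusted p = 0.000729) in LepK against IgGK. Bhmt2 and Dmgdh changed by -1.25 and -1.54 in the first comparison and by 0.81 and 0.98 in the second. The medians over the 43 members were -1.27 and 0.67, and the part of the shared region was not tested. Bhmt, the betaine-dependent enzyme and neighbour of both, was scarce, with 2.78, 2.53 and 3.35 CPM in WTK, 0.857, 2.88 and 1.82 CPM in IgGK and 1.97, 11.02 and 2.03 CPM in LepK. Its single high value came from LepK 2, the library with the liver markers, and it was called in no comparison.

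Glul (ENSMUSG00000026473, chr1:153775690-153785469, plus strand), which fixes ammonia into glutamine, had 538, 621 and 568 CPM in WTK, 415, 476 and 399 CPM in IgGK and 554, 500.0 and 523 CPM in LepK. Its IgGK libraries lay below the others with a change of -0.42 ± 0.08 (SE, adjusted p = 0.000988), under the fold threshold, and its LepK libraries overlapped those of WTK. With library-size scaling the change in IgGK was 0.02. Got1, the cytosolic aspartate aminotransferase, had 128, 133 and 126 CPM in WTK, 69.2, 64.8 and 68.4 CPM in IgGK and 90.9, 91.3 and 101 CPM in LepK. Got1 fell in IgGK, -0.93 ± 0.07 (SE, adjusted p = 2.20e-07), and stood at 0.48 ± 0.06 (SE, adjusted p = 0.000522) in LepK against IgGK, just under the fold threshold.

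In lung the same antibody comparison was made. Of the 43, 32 had enough counts to test, and 1, Sardh, was called lower and none higher in LepL against IgGL by edgeR, where 2.36% of the 19617 genes tested were called lower and 1.78% higher. At an unadjusted p under 0.05, 9 of the 32 members passed. DESeq2, which tested 42 members, including some of low count, called 2 lower and 2 higher. The share of all genes at this unadjusted p was not counted, and that called by DESeq2 is not given. The 9 members and the DESeq2 calls are therefore not read as a response of these genes in lung. The member median was 0.21, against 0.00 for all genes. The LepL libraries all lay above the IgGL libraries for 8 members and below them for 4, while libraries do not overlap in 33.3% of all genes. Sardh stood at 33.4, 32.4 and 36.8 CPM in IgGL and at 19.99, 21.5 and 16.1 CPM in LepL, a change of -0.83 ± 0.14 (SE, adjusted p = 0.0327). The groups did not overlap, but the adjusted p rose to between 0.0548 and 0.176 in the 5 fits that left out a library other than IgGL 1. Without IgGL 1, 3 members were called lower and 7 higher, while the calls over all genes went from 463 to 1602 lower and from 349 to 1937 higher. Pipox was higher by 1.46 ± 0.55 (SE, adjusted p = 0.132) at a very low level, 10, 6 and 4 counts in IgGL and 16, 21 and 19 counts in LepL. The other 11 members had 0 to 24 counts in each lung library, except for Ftcd, which had 69 in IgGL 3. Bhmt2 had no count in any of the 6 libraries.

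Among the 32 members with enough counts in both organs, the antibody contrast differed for 10, all with the higher change in kidney, where 3.18% of the 21488 genes tested were called higher and 3.49% lower. Ass1 had 20.8, 23.6 and 28.04 CPM in IgGL and 22.96, 18.4 and 18.4 CPM in LepL, so that its lung change was -0.28 against 1.32 in kidney, a difference of 1.63 ± 0.21 (SE, adjusted p = 0.00445). Asl and Gatm, which make and use arginine beside it, were also below 0 in lung, at -0.33 and -0.44, and differed from kidney by 1.02 ± 0.15 (SE, adjusted p = 0.007) and 1.08 ± 0.21 (SE, adjusted p = 0.0164). Their lung libraries did not overlap, with Asl at 25.3, 27.1 and 24.6 and 18.9, 22.5 and 19.9 CPM and Gatm at 25.04, 20.97 and 21.3 and 19.2, 18.2 and 12.2 CPM in IgGL and LepL, and neither passed the test in lung alone. Sardh gave a difference of 1.33 ± 0.15 (SE, adjusted p = 0.00301), Hoga1 one of 1.004 ± 0.20 (SE, adjusted p = 0.0186), Prodh one of 0.82 ± 0.19 (SE, adjusted p = 0.0271) and Gcsh one of 0.79 ± 0.21 (SE, adjusted p = 0.0428). Got1, Dbt and Hibadh differed by 0.72 ± 0.15 (SE, adjusted p = 0.0207), 0.61 ± 0.16 (SE, adjusted p = 0.0433) and 0.61 ± 0.16 (SE, adjusted p = 0.0382). Ftcd and Agxt2 were also called, which makes 12 of 43, but they passed the filter through the kidney libraries and their lung counts were too few to read a fold, with 10, 32 and 69 counts in IgGL and 0, 5 and 3 in LepL for Ftcd and 7, 0 and 2 and 0, 0 and 0 for Agxt2. In contrast, the branched-chain genes Mccc1, Pcca and Pccb stood at 0.52, 0.46 and 0.34 in lung and 0.54, 0.54 and 0.51 in kidney, with differences of 0.05 ± 0.20 (SE), 0.12 ± 0.24 (SE) and 0.21 ± 0.14 (SE) that were not called. The signs of these 3 differences turned with library-size scaling. The count of 12 fell to 6 without IgGK 2, without LepK 1 or without IgGL 2, to 7 without IgGK 1 or without IgGK 3, and to 0 with IgGK 3 as the only IgGK library. Over all genes, the number called higher ranged from 141 without LepK 1 to 1520 without IgGL 1, against 683 with all libraries.

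**Figure D3:**
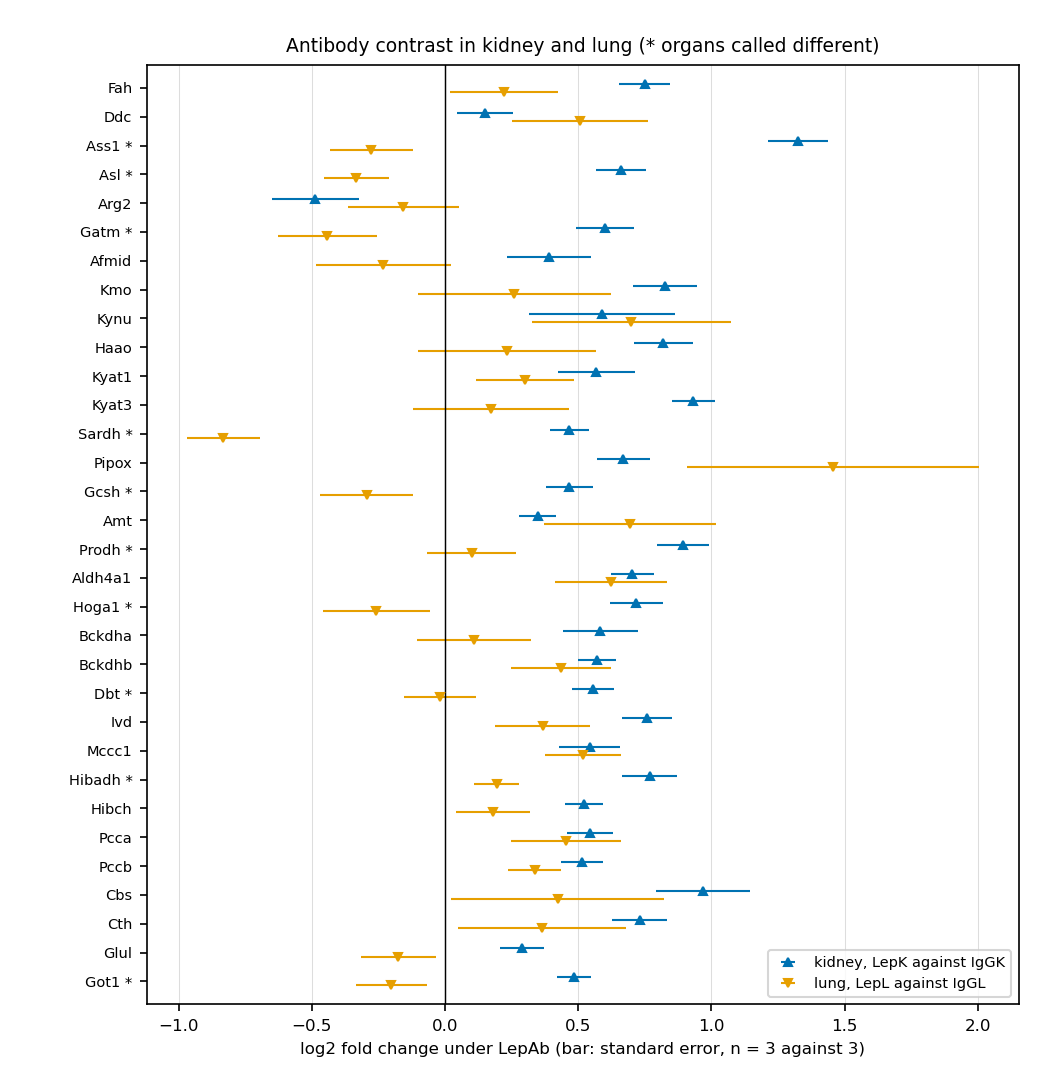
Log2 fold change under LepAb with its standard error in kidney (triangles up) and lung (triangles down) for the 32 members tested in both organs. Asterisks mark the 10 of these whose difference was called, and Ass1 shows the widest gap, 1.32 in kidney against -0.28 in lung.

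A wider list of 82 further amino acid enzymes, chosen by function with earlier results of these data known, was read in the same fits. In IgGK against WTK 46 of 75 tested were called lower and 5 higher, with a median of -0.80, and in LepK against IgGK 1 was called lower and 27 higher, with a median of 0.46. Over all genes tested, 15.6% were called lower and 21.7% higher in the first comparison, and 5.99% and 4.38% in the second. Among those with at least 1 CPM, large falls in IgGK were in Odc1, the ornithine decarboxylase of polyamine synthesis, with 2614, 1886 and 1812 CPM in WTK, 557, 304 and 494 CPM in IgGK and 992, 507 and 569 CPM in LepK, and in Aadat, another aminotransferase of kynurenine, with 324, 305 and 270.0 CPM in WTK, 96.1, 52.5 and 76.9 CPM in IgGK and 201, 124 and 125 CPM in LepK. Both lay below WTK in every IgGK library. The largest rises in IgGK were in Arg1, the cytosolic arginase, which is abundant in liver, in Aldh18a1, which makes pyrroline-5-carboxylate for proline, and in Phgdh, the first step of serine synthesis. Arg1 was scarce, at 0.208, 0.0789 and 0.288 CPM in WTK, 1.32, 3.94 and 2.66 CPM in IgGK and 0.724, 10.7 and 0.701 CPM in LepK, with its highest value in LepK 2. Aldh18a1 had 2.95, 2.80 and 3.14 CPM in WTK, 9.32, 10.9 and 11.2 CPM in IgGK and 7.34, 8.44 and 6.42 CPM in LepK. Phgdh had 7.22, 7.06 and 8.15 CPM in WTK, 17.3, 21.4 and 19.2 CPM in IgGK and 12.9, 15.6 and 16.8 CPM in LepK. Aldh18a1 and Phgdh, of proline and serine synthesis, stood higher in IgGK while Prodh and Aldh4a1, which degrade proline, stood lower. In LepK against IgGK, Aldh18a1 was the single gene of the list called lower, at -0.50 ± 0.15 (SE, adjusted p = 0.0362), a call lost without IgGK 2, IgGK 3, LepK 1 or LepK 3, with adjusted p of 0.0978 to 0.130. Gnmt, which methylates glycine to sarcosine, rose by 1.32 ± 0.14 (SE) and Ido2, a tryptophan dioxygenase, by 1.05 ± 0.18 (SE). Gnmt had 33.5, 34.5 and 38.4 CPM in WTK, 10.8, 9.25 and 10.7 CPM in IgGK and 23.2, 32.2 and 21.5 CPM in LepK.

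Marker lists of cell types were set beside these genes, and some moved with them and others the opposite way. Over all genes tested, 15.6% were called lower and 21.7% higher in IgGK against WTK. In LepK against IgGK these shares were 5.99% and 4.38%. The 43 members summed to 13530 to 14000 CPM in WTK, to 4536 to 5168 CPM in IgGK and to 7755 to 9245 CPM in LepK. The 12 proximal tubule markers summed to 55070 to 57020, 13590 to 21240 and 29570 to 39980 CPM in the same groups, and 12 of 12 were called lower in IgGK and 9 of 12 higher in LepK against IgGK, with medians of -1.58 and 0.84 beside -1.27 and 0.67 for the members. Per 1000 CPM of these markers the members held 242.9 to 247.9 CPM in WTK, 243.3, 333.8 and 244.7 CPM in IgGK 1, 2 and 3, and 231.2 to 263.3 CPM in LepK. The 8 injured tubule markers went the opposite way, from 461 to 479 CPM in WTK to 6360 to 6700 CPM in IgGK and 2612 to 3961 CPM in LepK. Distal nephron and collecting duct markers fell in 3 of 8 and rose in 5 of 8 in the 2 comparisons, macrophage markers rose in 7 of 8 and fell in 7 of 8, neutrophil markers rose and fell in 4 of 4 tested, and fibroblast markers rose in 8 of 8 and fell in 7 of 8. Adipocyte markers were called higher in 4 and lower in 1 of 5 in IgGK and lower in 1 of 5 in LepK, adrenal cortex markers higher in 5 of 5 tested in IgGK and lower in 5 of 5 in LepK, and hepatocyte markers higher in 2 and lower in 1 of 9 in IgGK and higher in 1 of 9 in LepK. Lung epithelium markers were called higher in 2 of 4 tested in IgGK and in none of 4 in LepK. The share of counts from mitochondrial genes was 9.41 to 9.62% in WTK, 5.85 to 6.27% in IgGK and 8.01 to 9.65% in LepK. The part of these cell types in the changes of the members was not tested.

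**Figure D4:**
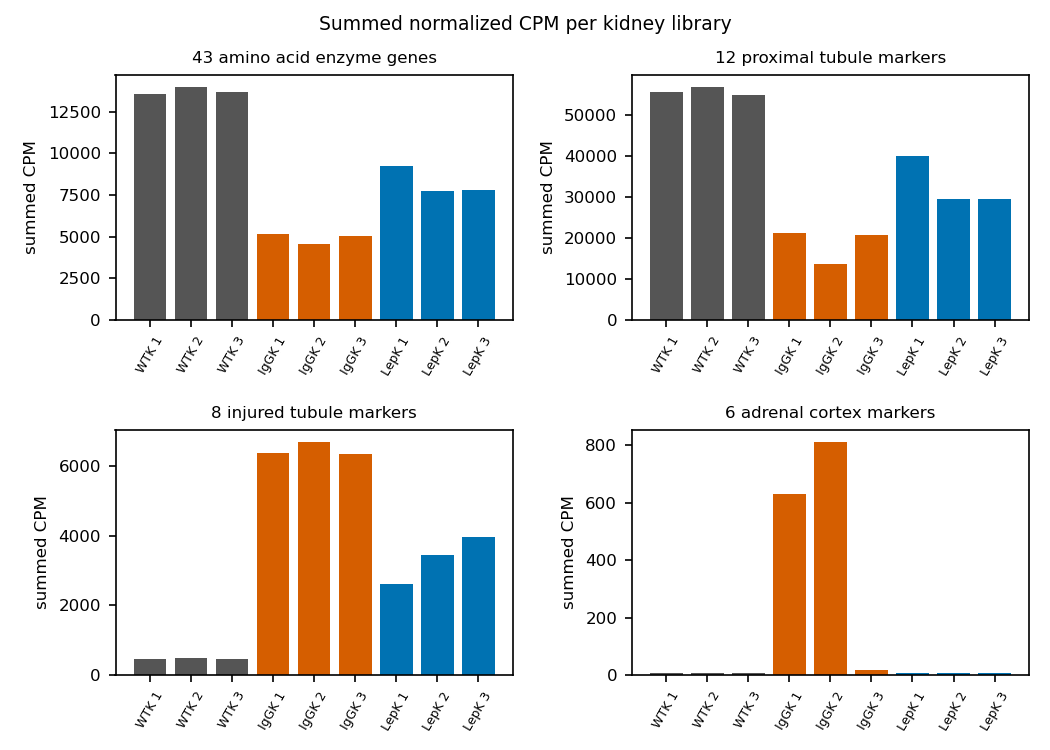
Summed CPM in each kidney library of the 43 members and of the markers of proximal tubule, injured tubule and adrenal cortex, each from 0. The sum of the members and that of the proximal tubule markers are lowest in IgGK 2 and highest in WTK 2, and the adrenal markers stand at 631 and 811.7 CPM in IgGK 1 and IgGK 2.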

How the data were processed

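RNA-seq of 9 kidney and 6 lung libraries was analysed. The authors deposited 1 table with, per gene, whole-number read counts, not normalized, and FPKM values, which the authors scaled by gene length and by a library constant of 1.02 to 1.46 times the total count. Their group means, fold changes and p-values were not used. The libraries were poly(A) selected and non-directional. GRCm39 (mm39) and DESeq2 are named in the submitters' processing notes without a role, and the aligner, counter and annotation are not given in the sources used here. Reads of overlapping genes can therefore be shared.

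Libraries were grouped by their labels. A further description line that names a column disagrees with the labels and was not used. Counts were analysed in R 4.3.3 with edgeR 4.0.16 (filterByExpr with minimum count 10 and minimum total 15, TMM, glmQLFit and glmQLFTest), with all kidney libraries in 1 fit, all lung libraries in another, and the 12 libraries of injured organs in a separate fit for the difference of antibody effects. P-values were adjusted by Benjamini-Hochberg over all genes tested, and the SE is the log2 fold change over the square root of F. CPM used TMM factors within each organ. The thresholds follow the study's methods. The same procedure was tested on simulated data, with 200 genes changed 2-fold in each comparison. It called 77.5 to 79% of them in the kidney comparisons, 65% in LepL against IgGL and 42.5% for kidney minus lung. False calls numbered 5 to 13 per comparison. A missing call in lung or for kidney minus lung is therefore not read as no change. Replicates differed by chi-square statistics of 7.15 to 98.6 per gene, so no library was a copy of another's counts. This cannot show whether libraries came from the same mouse.

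Values in every library are given for members called in LepK against IgGK, in LepL against IgGL or for kidney minus lung, for members called higher in IgGK and for the most abundant member of each class. The others are given by mean, range or call. Of the further enzymes, the 3 called genes that changed most in each direction are named, at a mean of at least 1 CPM, except for 1 gene that is not reported here. Members, lists and tests were chosen with earlier results of these data known. Alternatives were DESeq2 1.42.0, RLE, upper-quartile and library-size scaling, other filters and thresholds, fits of 2 groups, the replicate block, leaving out each library, and, after seeing the data, leaving out libraries with adrenal or liver markers.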

Additional observations from a re-analysis of the deposited data

Results flagged for a closer look

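For 10 members tested in both organs the change under LepAb differed between kidney and lung in a test of the difference itself, by edgeR over the 12 libraries of injured organs. The log2 difference, kidney minus lung, was 1.63 for Ass1, 1.02 for Asl and 1.08 for Gatm among the arginine and creatine genes, 1.33 for Sardh and 0.79 for Gcsh among the glycine genes, 1.004 for Hoga1 and 0.82 for Prodh in proline and hydroxyproline breakdown, 0.61 for Dbt and 0.61 for Hibadh in branched-chain breakdown and 0.72 for Got1. Ftcd and Agxt2 were called as well, with fitted differences of 5.16 and 5.28, but they passed the filter through the kidney libraries alone and rest on low lung counts, 0 to 5 in LepL, so that neither the size nor the call is read. When each of the 12 libraries was left out in turn, Ass1, Asl, Gatm and Sardh were called in 12 of 12 fits, Hoga1 in 11, Got1 in 9, Prodh in 4, Hibadh in 3, Dbt in 2 and Gcsh in 2. The organs also differ in injury, in day of sampling and in which mice they came from, and these cannot be told apart. Groups of 3 libraries were too small for a check of single outlying libraries.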

How the results depend on the processing

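No called member changed sign under the alternatives run. Among the values printed for members not called, library-size scaling turned those in IgGK against WTK to 0.10 for Ddc and 0.024 for Glul, those in LepK against IgGK to -0.027 for Ddc and -0.059 for Gldc, those in LepK against WTK to 0.11 for Bckdhb, 0.18 for Ftcd and 0.012 for Kyat3, and those for kidney minus lung to -0.19 for Mccc1, -0.12 for Pcca and -0.042 for Pccb. Mccc1 also turned with upper-quartile scaling (-0.0046) and with IgGK 3 as the only IgGK library (-0.033). Leaving out 1 library gave -0.10 to 0.14 for Mccc1, below 0 without IgGK 2, IgGL 1 or LepK 1, -0.14 to 0.26 for Pcca, below 0 without IgGL 1, and -0.053 to 0.31 for Gldc, below 0 without IgGK 3. Leaving out 1 library at a time gave 37 to 37 members called lower and 1 to 1 called higher in IgGK against WTK, 27 to 36 higher and 0 to 0 lower in LepK against IgGK, 23 to 30 lower and 2 to 3 higher in LepK against WTK, 0 to 3 lower and 0 to 7 higher in LepL against IgGL, and 6 to 14 higher and 0 to 0 lower for kidney minus lung. The lung extremes of 7 higher and 3 lower came without IgGL 1. Over all genes these fits gave 0 to 1937 higher and 0 to 1602 lower in LepL against IgGL, and 141 to 1520 higher and 195 to 1808 lower for kidney minus lung. The counts for kidney minus lung are over the 43 members, with those of too few lung counts included. An absolute log2 fold change over 1 left 3 members higher in LepK against IgGK, 7 lower and 0 higher in LepK against WTK, 0 lower in lung and 7 for kidney minus lung. Scaling by library size alone, without composition factors, moved the median of all genes from 0.04 to 0.48 in IgGK against WTK, from -0.01 to -0.19 in LepK against IgGK, from 0.03 to 0.29 in LepK against WTK and from -0.01 to -0.25 for kidney minus lung, and those of the members to -0.83, 0.49, -0.30 and 0.35. It gave 2 members higher in IgGK against WTK, with Uroc1 added, 20 higher and 1 lower (Arg2) in LepK against IgGK, 12 lower in LepK against WTK and 7 for kidney minus lung, and split all genes into 7803 higher and 1178 lower in IgGK against WTK, against 4253 and 3057 with TMM, 408 and 2185 in LepK against IgGK, against 858 and 1174, 4782 and 512 in LepK against WTK, against 2984 and 1431, and 218 and 1856 for kidney minus lung, against 683 and 749. In LepL against IgGL, members called higher and lower came to 4 and 2 in 1 fit with the injured kidney libraries, 2 and 2 with DESeq2 and 3 and 2 with no filter on low counts. These settings tested 43, 42 and 42 members, including those with few lung counts. The share of all genes called under them is not given, so these counts are not read as a result about the members. The replicate block left 0 members lower in lung, where Sardh had an adjusted p of 0.0768, 37 lower in IgGK against WTK, 33 higher in LepK against IgGK, 29 lower in LepK against WTK and 10 higher for kidney minus lung. Deviations of same-numbered libraries correlated at -0.06 to 0.18, so the numbers were not taken to pair libraries. For kidney minus lung, 0 members were called with IgGK 3 as the only IgGK library, chosen after seeing the data, also when LepK 2 was left out, and this leaves 1 library to stand for its group, assumed to vary like the others. All other alternatives kept each count of members within 1.5 times.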

Other observations

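Within the kidney groups the lowest and highest levels of the members were not spread evenly over the libraries. IgGK 2 held the lowest level of its group for 26 of 43 members, LepK 1 the highest for 32, and the WTK libraries the highest for 17, 18 and 8. The shares of all genes for which these libraries were lowest or highest were not counted, so this is not read as particular to the members. The coefficient of variation had a median over the members of 4.79% in WTK, 10% in IgGK and 10.1% in LepK, where Bhmt reached 104%. Tat, the liver enzyme that feeds tyrosine into the pathway of Hpd, was listed at 0 in the 3 WTK libraries and stood at 0, 9.34 and 0.480 CPM in LepK 1, 2 and 3. In lung, Tat stood at 1.83, 12.9 and 7.61 CPM in IgGL and at 1.96, 0.963 and 2.54 CPM in LepL.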
